A study of Homo sapiens with 2 samples.

Results

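The genes described here are those of the death receptors and of the signalling complex that assembles on them, read in a human skin cancer cell line after knockdown of a long non-coding RNA. They are the rows of the deposited gene table named TNFRSF10A, TNFRSF10B, TNFRSF10D, FAS and TNFRSF1A (receptors), TNFSF10 (a ligand), and FADD, TRADD, RIPK1 and CFLAR (adaptors and regulators). All 10 were found among the 44591 genes of the table. HSC-1, an established cell line from a squamous cell carcinoma of the skin, was transfected with a negative control siRNA (siNC) or an siRNA targeting LINP1 (siLINP1), and the total RNA was sequenced. According to the sample labels the cells of both groups were transfected at about 70% confluency, kept without serum for 6 h and then held in medium with 10% serum for another 24 h. The study's methods describe a different confluency and interval. Each condition was 1 library of 1 cell line, so no difference below has a replicate check, no p-value was computed, and every interval covers counting error only. The study connects loss of LINP1 to the unfolded protein response, to the transcription factor CHOP (encoded by DDIT3) and to death receptor DR5 (TNFRSF10B). The question here is how the messages of the whole receptor complex differed between the libraries.

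Death receptors are members of the tumour necrosis factor (TNF) receptor superfamily that carry a death domain in the cytoplasm. When a trimeric ligand such as TRAIL (TNFSF10) or Fas ligand binds, the receptor recruits the adaptor FADD, which in turn recruits caspase-8, and neighbouring caspase-8 molecules activate each other. CFLAR (c-FLIP) resembles caspase-8 without its catalytic activity and limits this step. TNF receptor 1 (TNFRSF1A) recruits TRADD and the kinase RIPK1 instead, in a ubiquitin-rich complex known for NF-kB signalling and survival, from which a cell-killing complex with FADD and caspase-8 can form later. Keratinocytes and squamous carcinoma cells are known to express receptors for TRAIL, Fas ligand and TNF.

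The target sites of the siRNAs of the study are shown because the knockdown rests on them and because bases 2 to 8 of a guide strand can also pair with other messages. Capitals mark the bases that pair with bases 2 to 8 of the guide. The study does not name which of them was used for sequencing.
siLINP1_01: ccaactgcgggACTTCAGa
siLINP1_02: cactctccagcCTGCAAGa
Both match the plus strand of chromosome 10 of GRCh37, chr10:6780757-6780775 for siLINP1_01 and chr10:6780487-6780505 for siLINP1_02, in exons of 4 of the 4 annotated LINP1 transcripts. In the longest annotated 3′UTR of each gene, the match ACTTCAG was present in 3 of the 10 genes (TNFSF10, RIPK1 and CFLAR), against 20.4% of 13644 genes. The match CTGCAAG was present in 1 of them (CFLAR), against 17.8%. Neither was found in the 3′UTR of TNFRSF1A, FAS, TNFRSF10A, TNFRSF10B, TNFRSF10D, FADD or TRADD.

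Gene-assigned reads numbered 18829544 for siNC and 15383081 for siLINP1. LINP1 itself was read 167 times in siNC and 23 times in siLINP1 (log2 fold change -2.65, 95% interval -3.35 to -2.02). Of 16 markers of squamous keratinocytes, 9 were under 1 RPKM (reads scaled to gene length and library size) in both libraries. Among the low ones KRT5 had 32 and 24 reads, TP63 had 6 and 8 and CDH1 had 14 and 3. Others were well read, such as ITGB4 with 5990 and 3962 reads and PERP with 1158 and 1398, and KRT14 had 243 and 87. Of the 16, 3 had an interval above 0, against 23.0% of all genes, and 4 below 0, against 25.6%, so both were near those shares. The summed level of the list was 131.0 RPKM in siNC and 133.6 in siLINP1, so the sum was close while single markers moved both ways. Most of the sum was ITGB4 (51.4 and 41.6 RPKM) and ITGA6 (40.9 and 54.1), which moved in opposite directions. The 10 mesenchymal markers summed to 1560 and 1314 RPKM, with 3 of them under 1 RPKM in both, and VIM alone made up 1519 and 1278. Of the 9 with at least 10 reads, 2 had an interval above 0 and 5 below 0, beside the same 23.0% and 25.6% of all genes. ZEB2 was higher, with 416 and 810 reads, and COL1A1 (190 and 79) and PDGFRB (369 and 172) were lower. All 6 blood, all 4 endothelial and all 4 melanocyte markers were under 1 RPKM in both libraries, with sums of at most 1.36, and the endothelial marker KDR had 111 and 48 reads. Whether these levels and changes have a part in the results below was not tested.

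The receptors that pass on the signals of TRAIL and Fas ligand, TNFRSF10A, TNFRSF10B and FAS, were higher in siLINP1 than in siNC. TNF receptor 1 and its adaptor TRADD were lower, both within 1.5-fold, and the log2 interval of TRADD (-0.53 to -0.037) ended near 0. FAS was 1.85-fold and TNFRSF10B 1.56-fold as high in siLINP1 as in siNC, and TNFRSF1A was at 0.758 of its siNC value. TNFRSF10D rose 4.86-fold from very few reads. The ligand TNFSF10 was scarcely read at all. FADD and CFLAR were higher within 1.5-fold, as was TNFRSF10A, and the interval of RIPK1 included 0. Fold changes compare read counts after scaling by median-of-ratios size factors (1.08 for siNC and 0.93 for siLINP1). In these bulk samples, fewer cells that carry a message and less of the message per cell cannot be told apart.

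Of the 10 genes, 9 had at least 10 reads summed over both libraries, the minimum for a fold, and 8 had at least 100. Past 1.5-fold, 3 of the 9 were higher (TNFRSF10D, FAS and TNFRSF10B), against 14.4% of all 19840 genes with at least 10 reads, and 0 were lower, against 13.0%. Among the 8 genes with at least 100 reads, FAS and TNFRSF10B were higher past 1.5-fold, against 8.72% of 13336 genes, and 0 were lower, against 6.77%. Past 2-fold, 1 of the 9 was higher, against 6.74%. The whole interval was above 0 for 6 of the 9 genes, against 23.0% of all genes, and below 0 for 2, against 25.6%. These shares depend on depth. Among genes with at least 100 reads the interval was above 0 for 3843 of 13336 and below 0 for 4458. The median log2 fold change of the 9 genes was 0.24, and that of all genes -0.023. With 9 genes, each of these counts rests on a few members.

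**Figure D1:**
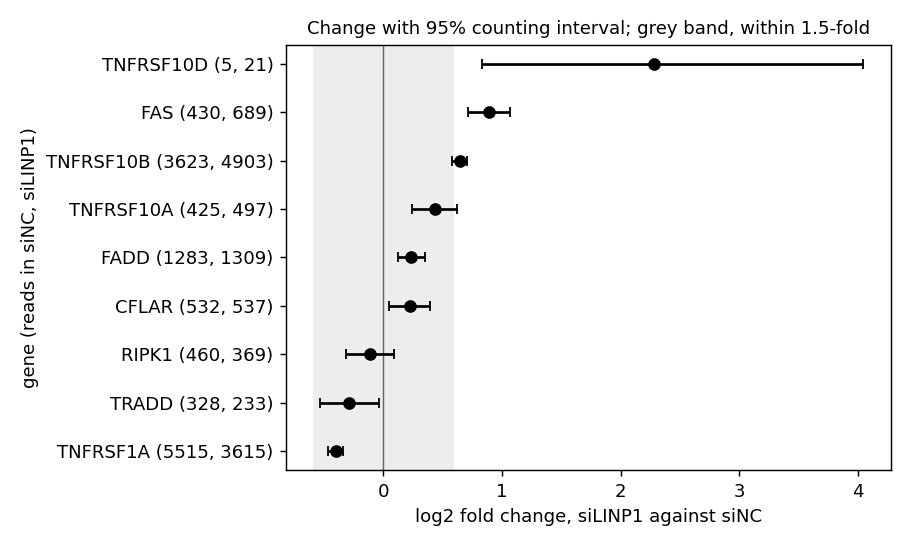
The log2 fold change of siLINP1 against siNC (horizontal axis) is drawn for the 9 genes with at least 10 reads, with the reads in siNC and siLINP1 in brackets. Bars are 95% counting intervals from 1 library per condition. FAS and TNFRSF10D lie wholly beyond the grey band of changes within 1.5-fold, the lower end of TNFRSF10B touches its edge, and TNFRSF1A lies below 0 inside the band.

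The receptors for TRAIL lie in a cluster on chromosome 8, TNFRSF10C on the plus strand and the others on the minus strand, from the start of TNFRSF10B to the end of TNFRSF10A over 205 kb (chr8:22877646-23082680, GRCh37). TNFRSF10A (DR4) and TNFRSF10B (DR5) carry a death domain and pass the signal on. TNFRSF10C and TNFRSF10D are decoys: the former is held in the membrane by a lipid anchor without a cytoplasmic part, and the latter has a truncated death domain.

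TNFRSF10B (chr8:22877646-22926700) had 3623 reads in siNC and 4903 in siLINP1, the most of any gene of the complex apart from TNFRSF1A in siNC and the most of all 10 in siLINP1. Its level per length was 46.3 RPKM in siNC and 76.7 in siLINP1. The log2 fold change was 0.65 (95% interval 0.58 to 0.71), above 87.1% of all genes with at least 10 reads, and the lower end of the interval lies at the 1.5-fold line. RHOBTB2, which overlaps its span on the opposite strand by 65 bases, had 752 and 466 reads. TNFRSF10A (chr8:23048970-23082680) had 425 and 497 reads, or 12.9 and 18.5 RPKM. Its log2 fold change was 0.44 (0.25 to 0.63), 1.35-fold, so it did not pass 1.5-fold.

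TNFRSF10D (chr8:22993101-23021543) had 5 reads in siNC and 21 in siLINP1, or 0.0751 and 0.386 RPKM. Its log2 fold change of 2.28 had a wide interval, from 0.83 to 4.04. The size of this change is thus poorly known, and even the higher level was far below that of the death receptors. TNFRSF10D is also among the genes that the study selected as higher on these same libraries, so its count above is not independent. The other decoy, TNFRSF10C, had 78 and 55 reads and a log2 fold change of -0.29 (-0.82 to 0.22), an interval that includes 0. The opposite signs of the decoys rest on few reads. TNFRSF10C also shares 28.0% of its words of 50 bases with transcripts of other genes, which leaves its count uncertain. The shares were 0.516% for TNFRSF10A, 1.03% for TNFRSF10B and 0.832% for TNFRSF10D.

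The make-up of the TRAIL receptor pool does not depend on any scaling between libraries. The 4 receptors together took 4131 reads in siNC and 5476 in siLINP1. TNFRSF10B held 87.7% of them in siNC (95% Clopper-Pearson interval 86.7 to 88.7) and 89.5% in siLINP1 (88.7 to 90.3). TNFRSF10A held 10.3% (9.38 to 11.3) and 9.08% (8.33 to 9.87). DR5 was thus the prevailing TRAIL receptor message in both libraries, and the interval of its share in siNC ended where that in siLINP1 began. TNFRSF10C held 1.89% (1.5 to 2.35) in siNC and 1.00% (0.758 to 1.31) in siLINP1. TNFRSF10D held 0.121% (0.0393 to 0.282) and 0.383% (0.238 to 0.586). The decoys held a small part of the pool in either library. Per length, TNFRSF10B made up 74.6% of the summed RPKM of the 4 receptors in siNC and 78.3% in siLINP1. The death receptors summed to 59.2 RPKM against 2.85 for the decoys in siNC, a ratio of 20.8, and to 95.2 against 2.78 in siLINP1, a ratio of 34.3. The fold of TNFRSF10B exceeded that of TNFRSF10C by 0.94 on the log2 scale (0.42 to 1.47).

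FAS (chr10:90750316-90776818, plus strand), the receptor for Fas ligand, had 430 reads in siNC and 689 in siLINP1, or 5.34 and 10.5 RPKM. The log2 fold change of 0.89 (0.71 to 1.07) was above 92.1% of all genes. Its whole interval lay past 1.5-fold. FAS moved from rank 7 to rank 5 among the 10 genes by RPKM, and from percentile 43.0 to percentile 57.6 of the protein-coding genes kept. The annotated span of FAS overlaps that of ACTA2 on the opposite strand by 839 bases. ACTA2 had 477 and 563 reads, and FAS-AS1, also on the opposite strand, had 8 and 9. The strand setting of the counting is not given in the sources used here, so reads in the overlaps cannot be assigned with certainty. Of the 50-base words of FAS, 0% were shared with other genes.

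A stretch of a listed FAS promoter is shown for its match, in capitals, to TGANTCA, a loose form of the AP-1 motif searched on both strands. N stands for any base, whereas the usual AP-1 motif has C or G there. This match has A, so it fits the loose form only. The match begins 242 bases before a FAS start site in the RefSeq promoter table.
FAS promoter: caagttgcTGAATCAatggagccctcccca
It lies on the plus strand at chr10:90750305-90750334 of GRCh37. The FAS span given above begins within the capitals, at chr10:90750316, and most of the printed stretch lies inside that span. The start site used for the distance also lies inside the span, so the match is upstream of that start only. Promoters were in the table for 6 of the 10 genes (CFLAR, FADD, FAS, RIPK1, TNFRSF1A and TNFSF10). In the 250 bases before the start, the loose AP-1 form was present in 2 of their 13 listed promoters (1 of CFLAR and 1 of FAS). Each time it read TGAATCA. The share of all 35116 promoters with the loose form was 6.57%. TATAAA was present in 2 of the 13 (1 of RIPK1 and 1 of TNFSF10), against 10.7%. The letters of a narrow form of the NF-kB motif (1.40% of promoters) and of the C/EBP-ATF motif TGATGNAA (3.14%) were in 0 of the 13. The narrow NF-kB form requires A after its opening run of G. A listed CFLAR promoter holds a stretch that differs from this form only by G in place of that A. Looser forms of the NF-kB motif were not searched, so the count of 0 does not exclude them in these promoters. A match describes the letters only.

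TNFRSF1A (chr12:6437923-6451283, minus strand), TNF receptor 1, had 5515 reads in siNC and 3615 in siLINP1. Per length it was the most abundant of the 10 genes in both libraries, at 125.0 RPKM in siNC and 100.3 in siLINP1, and above 96.9% and 96.2% of the protein-coding genes kept. Its log2 fold change was -0.40 (-0.46 to -0.34), the lowest of the 9 genes and above 21.1% of all genes, but within 1.5-fold. No gene of the table overlaps its span. TRADD (chr16:67188088-67193812, minus strand), the adaptor that binds this receptor, had 328 and 233 reads, or 11.6 and 10.1 RPKM. The log2 fold change of TRADD was -0.28 (-0.53 to -0.037), and -0.20 with total-count scaling. The reads of TNFRSF1A per read of TRADD were 16.8 in siNC and 15.5 in siLINP1, a log2 difference of -0.12 (-0.37 to 0.14), so a difference between the pair was not detectable at this depth.

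**Figure D2:**
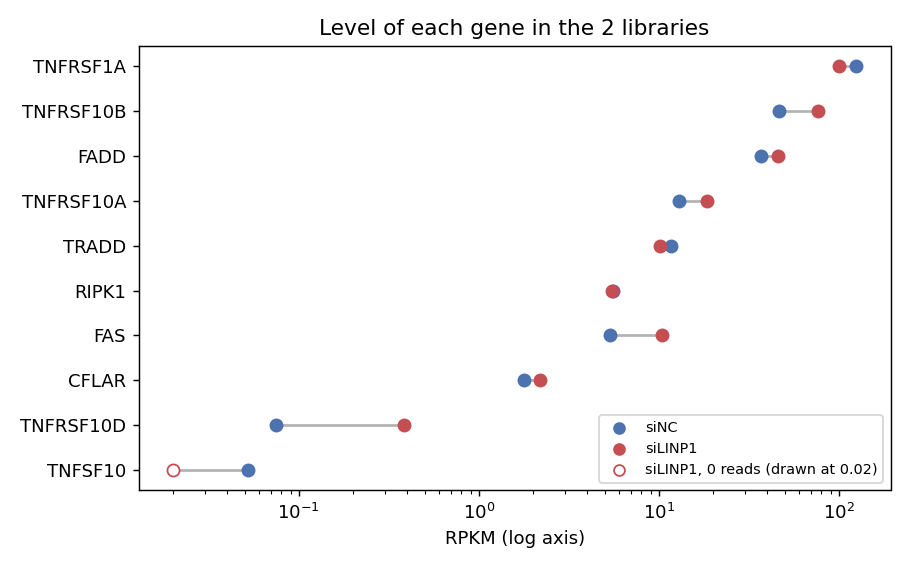
Each row is a gene and the horizontal axis is its RPKM on a log scale, with siNC in blue and siLINP1 in red. TNFRSF1A is at the top in both libraries, FAS passes TRADD and RIPK1 in siLINP1, and TNFSF10, at 0.0520 RPKM in siNC and 0 reads in siLINP1, is at the bottom.

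The ligand TNFSF10 (chr3:172223298-172241297, minus strand) was read 3 times in siNC and 0 times in siLINP1. At 0 reads the siLINP1 library allows up to 0.195 CPM (counts scaled to library size, here 3 reads of the total). Both counts are at or under this floor of 3 reads, so no fold is given, and the message of TRAIL was barely detectable in either library. Fas ligand (FASLG) had 1 and 0 reads and TNF had 0 and 2. The receptors were therefore read at depth in cells whose own messages for these ligands were at the detection limit. Of the 7 ligands listed, 4 had at least 10 reads, with a median log2 fold change of -0.76. Past 1.5-fold, 1 was higher, against 14.4% of all genes, and 2 were lower, against 13.0%, all from few reads. LTB, which encodes a lymphotoxin subunit, rose from 25 to 46 reads, 1.09 on the log2 scale (0.36 to 1.85). TNFSF12 (TWEAK) fell from 45 to 14 reads, -1.48 (-2.46 to -0.58), and TNFSF15 from 15 to 4, -1.70 (-3.75 to -0.047).

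FADD (chr11:70049269-70053508, plus strand), the adaptor shared by the death-inducing complexes, had 1283 reads in siNC and 1309 in siLINP1, or 36.8 and 45.9 RPKM. Its log2 fold change was 0.24 (0.13 to 0.35). An antisense gene shares 1100 bases of its span and had 526 and 497 reads. CFLAR (chr2:201980827-202037411, plus strand) was read 532 and 537 times, 0.22 on the log2 scale (0.047 to 0.40). After removal of the trend with gene length and mean count the value was 0.030. Its RPKM of 1.77 and 2.19 divides by a table length of 15921 bases, the longest of the 10 genes. On the opposite strand within its span, CFLAR-AS1 had 12 and 24 reads and the pseudogene IMPDH1P10 had 66 and 87. CASP8, the initiator caspase beside which CFLAR lies in a cluster of 172 kb with CASP10, had 527 and 538 reads and a log2 fold change of 0.24 (0.063 to 0.42).

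Differences in the proportions of these genes of the inner complex were within counting error. There were 1.01 reads of CFLAR per read of CASP8 in siNC and 0.998 in siLINP1, a log2 difference of -0.016 (-0.27 to 0.23). FADD had 2.43 reads per read of CASP8 in both libraries, with an interval of -0.21 to 0.21 for the log2 difference. Reads of TNFRSF10B per read of CASP8 went from 6.87 to 9.11, a log2 difference of 0.41 (0.22 to 0.59). The difference from siNC was thus greater for DR5 than for the initiator caspase of the same complex.

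RIPK1 (chr6:3064122-3115421, plus strand), the kinase of TNF receptor complexes, had 460 and 369 reads, or 5.59 and 5.48 RPKM. Its log2 fold change of -0.11 (-0.31 to 0.092) included 0. With the median-of-ratios scaling, RIPK1 was the only one of the 9 genes whose interval included 0. TRADD reads per RIPK1 read were 0.713 in siNC and 0.631 in siLINP1, a log2 difference of -0.18 (-0.50 to 0.15).

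**Figure D3:**
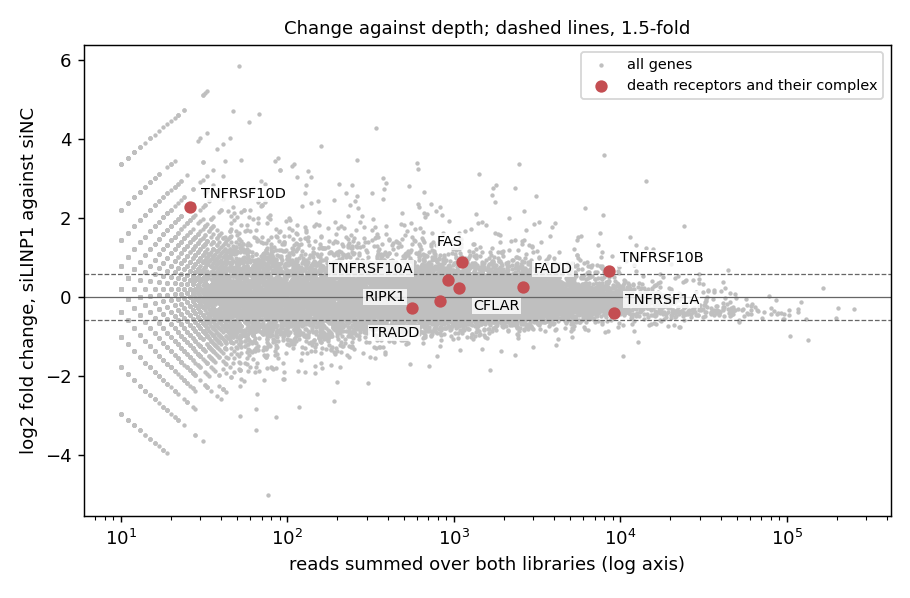
Each grey point is a gene with at least 10 reads, placed by its reads summed over both libraries (log axis) and its log2 fold change. The red points are the 9 genes named, of which TNFRSF10D lies at 26 reads, where changes past the dashed 1.5-fold lines were frequent among all genes.

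The folds of the 8 genes with at least 100 reads were compared pair by pair from the reads alone, so that no scaling factor enters. In falling order of fold they were FAS, TNFRSF10B, TNFRSF10A, FADD, CFLAR, RIPK1, TRADD and TNFRSF1A. Of the 28 pairs, 18 differed beyond counting error, with exact intervals widened for 28 comparisons, and 0 of the 7 pairs of neighbours in this order did. Pairs of other genes were not counted in this way, so whether 18 of 28 is particular to these genes was not tested. FAS exceeded TNFRSF1A by 1.29 on the log2 scale (0.99 to 1.59), TNFRSF10B exceeded it by 1.05 (0.91 to 1.18) and TNFRSF10A by 0.84 (0.52 to 1.15). The gap between the TRAIL and Fas receptors and TNF receptor 1 therefore does not depend on the scaling between libraries. TNFRSF10B also exceeded its adaptor FADD by 0.41 (0.20 to 0.61) and CFLAR by 0.42 (0.13 to 0.72). FAS exceeded TNFRSF10A by 0.45 (0.042 to 0.87). FAS and TNFRSF10B were not told apart (0.24, -0.052 to 0.54), nor were TNFRSF10B and TNFRSF10A (0.21, -0.11 to 0.53), FADD and CFLAR (0.015, -0.32 to 0.35), or TRADD and TNFRSF1A (0.12, -0.29 to 0.52).

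DDIT3, which encodes CHOP and which the study places upstream of DR5, was read 1965 times in siNC and 3558 times in siLINP1, with a log2 fold of 1.07 (0.99 to 1.15). The log2 fold change of TNFRSF10B was smaller than that of DDIT3 by 0.42 (interval of the difference -0.52 to -0.32). That of FAS differed from DDIT3 by -0.18 (-0.37 to 0.019), so these were not told apart. DDIT3 is also among the genes the study selected on these same libraries, so its rise is not independent. A shared direction of these genes in 1 pair of libraries is a description.

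The genes around the complex were taken from lists of textbook roles, 89 genes in all with the 10 above. Apart from those 10 there were 79 genes, of which 69 had at least 10 reads. Of these 69, 9 were higher and 4 lower past 1.5-fold, beside the 14.4% and 13.0% of all genes given above, and their median log2 fold change was -0.013. The pathway as a whole was thus close to all genes in its median. Among the 8 death receptors with enough reads (of 9 listed, EDAR had 3 and 2 reads), 7 had an interval above 0, against 23.0% of all genes. For 1, TNFRSF1A, it was below 0, against 25.6%. Each of the 8 had at least 100 reads. At that depth the interval was above 0 for 3843 of 13336 genes and below 0 for 4458, which are larger shares. The 7 include EDA2R, a receptor of the same family that lacks a death domain, and 4 of the 8 are among the 10 genes already described. TNFRSF21 (DR6) was read 4076 and 4017 times, 0.19 on the log2 scale (0.13 to 0.25). TNFRSF25 (DR3) had 465 and 491, 0.29 (0.10 to 0.47). Neither passed 1.5-fold. NGFR had 0.21 (0.074 to 0.35) and EDA2R 0.37 (0.20 to 0.55).

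Of the 4 decoys, only TNFRSF10D was higher. TNFRSF11B (osteoprotegerin), a secreted decoy that also binds TRAIL, had 180 and 115 reads, -0.44 on the log2 scale (-0.79 to -0.091). TNFRSF6B, a secreted decoy for Fas ligand, had 97 and 69 reads, -0.28 (-0.75 to 0.18). Among the 6 adaptors, initiator caspases and RIPK1, 0 passed 1.5-fold in either direction, against 14.4% of all genes higher and 13.0% lower. With 6 genes, a count of 0 says little about the list. CASP10 had 140 and 100 reads, -0.28 (-0.66 to 0.10).

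Of 21 regulators of TNF receptor complex I and of its ubiquitin chains, all with at least 10 reads, 4 were higher past 1.5-fold, against 14.4% of all genes, and 0 lower, against 13.0%. Their median log2 fold change was 0.029, so the list as a whole was near all genes and the rises were those of single members. BIRC3 (cIAP2), a ubiquitin ligase that acts on RIPK1, rose from 969 to 3077 reads, 1.88 (1.77 to 1.98). TNFAIP3 (A20), which edits ubiquitin chains, rose from 718 to 2006, 1.69 (1.57 to 1.82). CYLD, a deubiquitinase known for releasing RIPK1 from complex I, rose from 536 to 1370, 1.56 (1.42 to 1.71). BIRC2 (cIAP1) rose from 1209 to 1729, 0.73 (0.62 to 0.83). The list thus held both a ligase that adds and enzymes that remove ubiquitin. BIRC3, TNFAIP3 and CYLD are among the genes the study selected on these libraries, so their rise is not independent.

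Of the 10 genes listed downstream of caspase-8, 0 passed 1.5-fold in either direction, against 14.4% of all genes higher and 13.0% lower. With 10 genes, a count of 0 says little about the list. Their whole interval was below 0 for 3, a share near the 25.6% of all genes. BAX, which permeabilises mitochondria, had 3403 and 2367 reads, -0.31 (-0.39 to -0.24), and APAF1, the scaffold of the apoptosome, had 628 and 442, -0.30 (-0.48 to -0.12). DIABLO, a mitochondrial protein that counters inhibitors of apoptosis, had 1437 and 1097, -0.18 (-0.29 to -0.066). The median of this list was -0.055. Of the 4 necroptosis genes, RIPK3 had 1 and 0 reads and ZBP1 had 1 and 3. MLKL, the pore-forming effector of necroptosis, had 459 and 368 reads, -0.11 (-0.31 to 0.092), and PGAM5 had 2117 and 1411, -0.38 (-0.47 to -0.28).

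**Figure D4:**
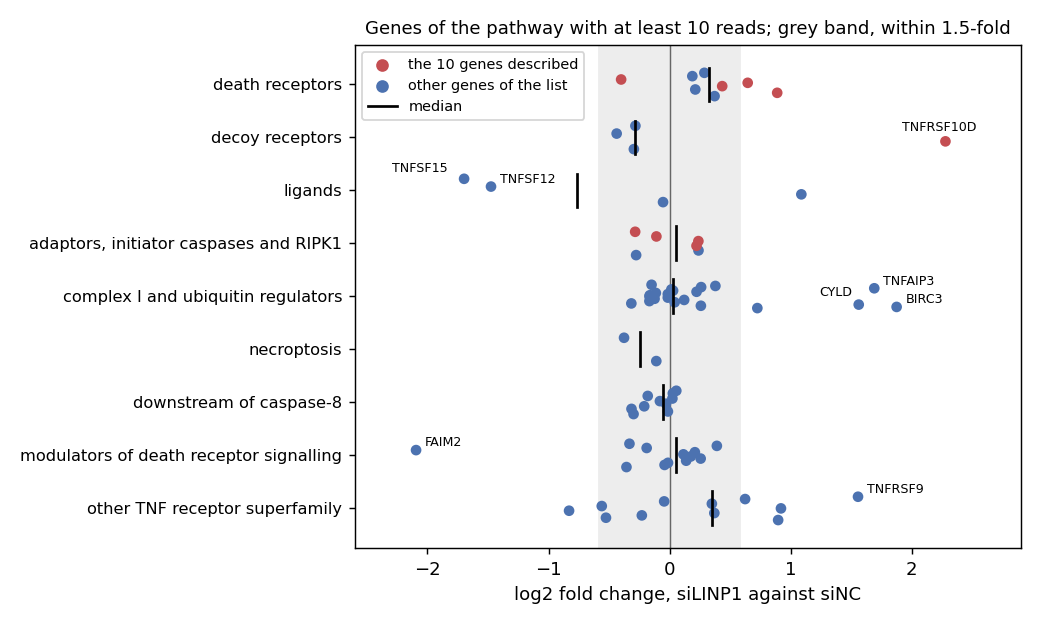
Each point is a pathway gene with at least 10 reads, placed by its log2 fold change of siLINP1 against siNC within its list, with the list median as a black line and, in red, the 9 of the 10 genes of the complex that had enough reads. Most points lie in the grey band within 1.5-fold. To the right of it are 12 genes, of which TNFRSF10D (26 reads), BIRC3, TNFAIP3, CYLD and TNFRSF9 lie furthest out.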

How the data were processed

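Libraries were run by the authors on an Illumina HiSeq. Their alignment to GRCh37/hg19 used Tophat2 and their gene counting used HTSeq. The submitters' processing notes also name HISAT2, HISAT and Bowtie2, without roles. Versions, annotation and strand setting are not given in the sources used here. The deposited values used are raw read counts, and the deposited RPKM values equal the count divided by gene length and library total. The RPKM values served only to order genes by level, and 12 other per-sample columns were not used.

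Groups came from the treatment label, with 1 library each. Size factors (median of ratios) were taken over the whole table. A gene needed 10 reads in sum to be kept. Log2 fold changes had no pseudocount and carry the 95% Clopper-Pearson interval of the read split. Called means past 1.5-fold or 2-fold. Ratios and pairs used exact conditional intervals, Bonferroni-widened for the pairs. A fold needed more than 3 reads in a library.

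The genes, lists and marker sets were chosen with earlier results of these data known. Results on some single genes are not reported here, and those genes are in none of the list counts. Named were the 10 genes, LINP1, DDIT3, from each list at most 4 genes with the largest nearer interval end, and genes under 10 reads where a list held at most 5. TNFRSF10C, TNFRSF21, TNFRSF25, NGFR, EDA2R, TNFRSF6B, CASP10, MLKL, CD27, TNFRSF8, TNFRSF11A, single cell type markers and the genes overlapping these 10 were added after their values were seen. 3′UTRs and overlaps came from GENCODE on GRCh37 and from the table, promoters from RefSeq. Alternatives were total-count and edgeR TMM scaling, pseudocounts of 1 and 5, minimums of 1 and 100 reads, only protein-coding genes, and removal of the trend with gene length and mean count (lowess, fraction 0.3). The calculations were tested on simulated counts. The tools were R 4.3.3 with edgeR 4.0.16 (for TMM), and scipy 1.17.1, numpy 2.4.6, statsmodels 0.14.6, pandas 2.3.3 and matplotlib 3.10.9 under Python 3.11.15.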

Additional observations from a re-analysis of the deposited data

How the results depend on the processing

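No log2 fold change of the 9 genes or LINP1 changed sign under the 8 alternatives, and 3 genes stayed past 1.5-fold wherever TNFRSF10D was kept. Over all settings FAS ranged from 0.86 to 0.97 on the log2 scale, TNFRSF10B from 0.65 to 0.73, TNFRSF10A from 0.43 to 0.52, TNFRSF1A from -0.40 to -0.27, TRADD from -0.28 to -0.17 and CFLAR from 0.030 to 0.31. TNFRSF10D ranged from 1.52 to 2.36 over the settings that kept it. Total-count scaling moved the median of all genes from -0.023 to 0.059. The counts of all genes past 1.5-fold, 2863 higher and 2573 lower, became 7048 and 6456 with a minimum of 1 read, 1163 and 903 with 100 reads, 1700 and 1318 with protein-coding genes only, and 1235 and 717 after removal of the trend with length and mean count, which was made on genes with at least 100 reads. The median of the ligand list moved from -0.76 to -0.53 with a pseudocount of 5. No paired analysis was possible because each condition had 1 library, and for the same reason no replicate could be left out. Low depth limits the values of TNFRSF10D, TNFSF10, TNFRSF10C and the ligands.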

Other observations

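Among the TNF receptor superfamily members without a death domain, 11 of 16 had at least 10 reads. The median log2 fold change of the 11 was 0.35. Past 1.5-fold, 4 were higher, against 14.4% of all genes, and 1 was lower, against 13.0%. The 4 include CD27 (18 and 29 reads, log2 fold change 0.90, 0.00018 to 1.83) and TNFRSF8 (6 and 8 reads, 0.62, -1.09 to 2.43). The lower gene was TNFRSF11A, with 37 and 18 reads, -0.83 (-1.73 to 0.019), an interval that includes 0. TNFRSF9 (4-1BB), a costimulatory receptor, rose from 143 to 364 reads, 1.56 on the log2 scale (95% interval 1.27 to 1.85). It is among the genes the study selected on these libraries. TNFRSF12A (Fn14), the receptor for TWEAK, rose from 4127 to 6757 reads, 0.92 (0.86 to 0.98), while the TWEAK message TNFSF12 fell from 45 to 14 reads. TNFRSF14 (HVEM) had 225 and 132 reads, -0.56 (-0.88 to -0.24), and RELT had 628 and 702, 0.37 (0.21 to 0.53). TNFRSF13B had 1 and 0 reads, TNFRSF13C 4 and 0, TNFRSF17 0 and 0, TNFRSF18 1 and 1, and TNFRSF4 1 and 3.

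Of 12 modulators of death receptor signalling, 0 were higher past 1.5-fold, against 14.4% of all genes, and 1 was lower, against 13.0%. The median of the list was 0.051. FAIM2, an inhibitor of Fas-mediated death known from neurons, fell from 79 to 16 reads, -2.09 (-2.97 to -1.31), and is among the genes the study selected on these libraries. PEA15, a death effector domain protein, had 7272 and 8247 reads, 0.39 (0.35 to 0.44), and DEDD had 1128 and 1166, 0.26 (0.14 to 0.38). ARAP1 had 2699 and 1824 reads, -0.36 (-0.44 to -0.27).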
